A study of Mus musculus with 16 samples.

Results

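The genes studied here are the 82 genes that start between 40 and 45 Mb on mouse chromosome 4 (build mm10) and reached a mean of 0.5 CPM, a gene's count scaled to the library's total, over the 16 libraries of the series. The deposited tables hold 181 genes that start in this interval, not counting 1 gene that the rule leaves out. Of these, 99 stayed below the minimum, 33 of them with no count in any library. The interval was chosen because genotype differences had been seen in it. Every genotype value of its genes, any adjusted p by genotype included, is therefore given only as a description. All 82 genes were among the 18350 genes tested in the whole series. By annotation 69 code for protein and 5 are antisense transcripts, with 42 genes on the plus strand and 40 on the minus strand.

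The libraries were made from tissue punches labelled as the ventral posterolateral nuclei of the mouse thalamus, which relay touch and pain signals to the cortex. There were 4 groups of 4 libraries, numbered 1 to 16 through the series: WT naive (1 to 4), RGS4KO naive (5 to 8), WT CFA (9 to 12) and RGS4KO CFA (13 to 16). The text of the series describes mice with a floxed RGS4 gene and an adeno-associated virus carrying Cre to lower RGS4 in this nucleus, while the sample labels give only a genotype. CFA is not spelled out in the labels; in pain research it commonly stands for complete Freund's adjuvant, which causes a lasting inflammation at the injected site. Each library pooled 4 punches from 2 mice, and the sources used here give neither the age of the mice nor the time after CFA. A punch can also hold cells that the virus did not reach. The labels name all mice female and the protocol names male mice; Xist ranged from 559 to 747 CPM in the 16 libraries.

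Total counts ran from 18.1 M to 78.8 M per library, with a median of 42.6 M. Rgs4, the targeted gene, was measured first as a check of the labels. It averaged 80.8 ± 3.66 CPM (SD, n = 4) in WT naive libraries and 81.3 ± 2.74 CPM in naive libraries labelled RGS4KO (difference 0.416 CPM, exact two-sided permutation p = 0.886). After CFA its mean was 89.3 ± 6.65 CPM for WT and 84.0 ± 5.5 CPM for the RGS4KO label (exact permutation p = 0.229). With 4 libraries against 4, no p below 0.0286 can be reached by this exact test. Rgs4 was not detectably lower in either contrast, so the genotype is called the label throughout. WT naive library 2 stood apart in Y-linked transcripts, whose sum of 4 genes was 1.3 CPM there and at most 0.172 CPM in the other libraries. Without it, edgeR no longer called Kif24 by label in naive libraries, Unc13b by label on average or Aco1 for CFA. These losses were not particular to library 2. Of 16 fits that each left out 1 library, 6, 11 and 13 lost the respective call. Neuron markers summed to between 4860 and 5340 CPM per library, and the thalamic relay list had 8 of 9 markers measured, with sums between 938 and 1090 CPM. Of the 8, 2 were called higher by label in naive (0.698% of all genes tested) and 1 lower in CFA libraries (0.954%). After CFA in WT, 2 were called higher (1.42%). Oligodendrocyte markers summed to 6410 CPM in library 2 and 10900 CPM in library 8, the extremes. All 7 were higher by label in naive and lower in CFA libraries, with 0 called. The part of the cell mix in the values by label was not tested.

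The interval is gene-dense and mixes unrelated functions. Kif24 encodes a kinesin that acts at the centriole and restrains the growth of primary cilia. Ccl27a encodes a chemokine known best from skin, where it attracts T cells through the receptor CCR10, and mice carry several near-copies of it in this interval. Galt encodes the enzyme that passes uridine monophosphate between sugars in the breakdown of galactose. Unc13b encodes Munc13-2, which prepares synaptic vesicles for release. The receptors for ciliary neurotrophic factor (Cntfr) and interleukin 11 (Il11ra1) lie side by side and signal through the shared subunit gp130. Vcp, Bag1 and Dnaja1 serve protein quality control: VCP pulls ubiquitin-tagged proteins out of membranes and complexes, BAG1 makes HSP70 release its nucleotide, and DNAJA1 delivers clients to HSP70.

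Levels spanned a wide range. Among the 82 genes, 8 averaged over 100 CPM, 42 lay between 10 and 100 CPM, 32 were under 10 CPM and 7 were under 1 CPM, with a median of 17.4 CPM. Per kilobase of exon the highest was Clta, the clathrin light chain A, at 89.9 CPM per kb. It was followed by Bag1 (72.1 CPM per kb), Chmp5, a subunit of the membrane-cutting ESCRT-III complex (61.2 CPM per kb), Enho, which encodes the secreted peptide adropin (51.5 CPM per kb) and Dctn3, a dynactin subunit (49.7 CPM per kb). Fam219a, Phf24, which encodes a protein that binds inhibitory G protein alpha subunits, Vcp, Cntfr and the ribosome biogenesis gene Nol6 completed the 10 highest, between 40.3 and 29.4 CPM per kb. Over all 16 libraries Clta ran from 154 to 172 CPM, Bag1 from 87.4 to 106 CPM and Phf24 from 250 to 301 CPM. The lowest genes kept were Smim27, Gm12405 and Spaar, at 0.541, 0.619 and 0.643 CPM on plain totals, and the closest left out were Gm20878, Hrct1 and Gm13302, at 0.481, 0.437 and 0.394 CPM.

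Kif24 was the 1 gene whose libraries labelled RGS4KO lay below all WT libraries in both treatments. It lies at chr4:41390745-41464887 on the minus strand. In WT naive libraries 1 to 4 it measured 4.29, 5.03, 6.73 and 5.24 CPM, and in the naive libraries labelled RGS4KO (5 to 8) 4.13, 3.29, 3.14 and 2.4 CPM. After CFA, the WT libraries 9 to 12 gave 5.6, 4.03, 4.8 and 3.89 CPM, and libraries 13 to 16, labelled RGS4KO, 3.06, 3.31, 2.98 and 2.89 CPM. The groups did not overlap, but library 5 stood only just below the lowest WT naive library. The log2 fold change by label was -0.70 (SE 0.16) in naive and -0.58 (SE 0.15) in CFA libraries. Over all genes tested, 1.29% had libraries that did not overlap in the same direction in both treatments; of the 82 genes Kif24 alone did, a share of 1.22%.

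The bases just upstream of Kif24 are shown because this gene and Ccl27a varied in opposite directions over the libraries. The window, from RefSeq on build GRCm38.p6, is chr4:41464888-41465098 on the minus strand and ends where the first exon begins. Capitals mark the GC box (GGGCGG) and the CCAAT box, both searched on both strands, with overlapping matches counted.
Kif24: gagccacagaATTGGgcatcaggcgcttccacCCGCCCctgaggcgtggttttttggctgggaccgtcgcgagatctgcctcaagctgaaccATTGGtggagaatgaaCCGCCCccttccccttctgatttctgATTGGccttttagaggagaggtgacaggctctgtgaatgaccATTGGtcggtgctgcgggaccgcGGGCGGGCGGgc
This window held 4 GC boxes, a pair of them overlapping at its 3′ end, and 4 CCAAT boxes. Of 27025 RefSeq promoter windows of the same length, 26.9% held at least 1 GC box and 30.5% at least 1 CCAAT box. Those windows kept their upstream end when cut to this length, so they need not reach the first exon.

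Ccl27a was higher in most libraries labelled RGS4KO. It lies at chr4:41769467-41774247 on the minus strand. The WT naive libraries 1 to 4 held 8.78, 8.99, 5.9 and 6.85 CPM, and libraries 5 to 8, labelled RGS4KO, 8.93, 14.7, 17 and 15 CPM. After CFA the WT libraries 9 to 12 held 8.23, 13.8, 8.81 and 13.4 CPM, and libraries 13 to 16, labelled RGS4KO, 15, 14.9, 16 and 16.2 CPM. Library 5 thus sat within the WT naive range, WT CFA libraries 10 and 12 sat close to the libraries labelled RGS4KO, and libraries 9 and 11 stayed near the WT naive level. The groups overlapped in naive libraries and not in CFA libraries. The log2 fold change by label was 0.85 (SE 0.22) in naive and 0.49 (SE 0.21) in CFA libraries. The same window upstream of Ccl27a is chr4:41774248-41774426 on the minus strand, again from RefSeq on GRCm38.p6, with capitals for the CCAAT box.
Ccl27a: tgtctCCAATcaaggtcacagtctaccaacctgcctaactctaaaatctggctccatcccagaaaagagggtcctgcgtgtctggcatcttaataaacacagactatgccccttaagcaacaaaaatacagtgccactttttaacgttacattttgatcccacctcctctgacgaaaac
It held 1 CCAAT box, found in 25.2% of the 27025 windows cut in the same way to this length, and 0 GC boxes, found in 20.7% of them. Neither window held a TATA box (TATAAA) or the E-box CACGTG. These matches describe letters only.

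Reads of Ccl27a are hard to assign, because 45% of the 50-base words of its transcripts also occur in transcripts of genes elsewhere. The end of the coding sequence is shown beside that of its copy Gm13306 (chr4:42153436-42158839, plus strand) to make this visible. Both were taken from the GENCODE M21 transcripts Ccl27a-205 and Gm13306-202 and run from base 207 to base 408, counted from the first coding base of Gm13306-202. Capitals mark the bases that differ.
Ccl27a: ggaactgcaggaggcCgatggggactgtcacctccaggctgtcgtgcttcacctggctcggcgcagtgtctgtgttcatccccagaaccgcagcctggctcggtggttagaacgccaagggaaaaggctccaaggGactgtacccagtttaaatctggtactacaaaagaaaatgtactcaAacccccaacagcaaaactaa
Gm13306: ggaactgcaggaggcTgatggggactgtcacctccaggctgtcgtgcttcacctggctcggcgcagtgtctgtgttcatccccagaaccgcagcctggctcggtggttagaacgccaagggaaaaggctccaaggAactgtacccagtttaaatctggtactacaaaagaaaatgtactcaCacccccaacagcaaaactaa
Over the 408 aligned coding bases the copies differed at 3 positions, written with the base of Ccl27a first as C222T, G342A and A388C. Gm13306 did not share the pattern of Ccl27a. It measured 1.96 ± 0.286 CPM in WT naive, 1.82 ± 0.287 CPM in naive libraries labelled RGS4KO, 1.93 ± 0.144 CPM in WT CFA and 1.35 ± 0.25 CPM in CFA libraries labelled RGS4KO. A further copy just under the level minimum, Gm20878, went the other way, from 0.821 ± 0.184 CPM in WT naive to 0.239 ± 0.221 CPM in naive libraries labelled RGS4KO (log2 fold change -1.53, SE 0.39) and from 0.579 ± 0.176 to 0.282 ± 0.077 CPM after CFA. The sum of Ccl27a, Gm13306 and Gm20878, which does not depend on how reads were split among the 3, was 10.4 ± 1.14 CPM in WT naive, 16 ± 3.1 CPM in naive libraries labelled RGS4KO, 13.6 ± 2.64 CPM in WT CFA and 17.2 ± 0.569 CPM in CFA libraries labelled RGS4KO. The summed level kept the order of Ccl27a itself. This order was largely set beforehand, because Ccl27a (mean 12.0 CPM) far exceeds Gm13306 (1.77 CPM) and Gm20878 (0.48 CPM). Ccl27a shares words with 6 genes, so the sum does not settle how its reads were assigned.

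A run of predicted genes between 42.2 and 42.9 Mb was higher in libraries labelled RGS4KO on average. Gm17167 (chr4:42206998-42235313, plus strand) measured 1.83, 2.2, 1.11 and 1.17 CPM in WT naive libraries 1 to 4 and 2.0, 4.28, 4.08 and 3.83 CPM in libraries 5 to 8, labelled RGS4KO. In WT CFA libraries 9 to 12 it measured 1.81, 3.38, 1.86 and 3.38 CPM, and in libraries 13 to 16, labelled RGS4KO, 3.19, 4.54, 3.83 and 3.82 CPM. As with Ccl27a, library 5 was at the WT naive level and WT CFA libraries 10 and 12 were above 9 and 11. The log2 fold changes by label of Gm17167, Gm13301, Gm5859 and Gm12394 were 1.13 (SE 0.31), 1.0 (SE 0.30), 1.06 (SE 0.30) and 0.69 (SE 0.23) in naive libraries. In CFA libraries they were 0.55 (SE 0.27), 0.42 (SE 0.25), 0.48 (SE 0.26) and 0.41 (SE 0.19). All 4 lie in repeated sequence: 64.0%, 79.9%, 89.1% and 51.0% of their 50-base words occur in transcripts of other genes. The sum of Gm17167, Gm13301, Gm5859 and their neighbour Gm10600 went from 3.54 ± 1.19 CPM in WT naive to 7.7 ± 2.02 CPM in naive libraries labelled RGS4KO, and from 5.87 ± 1.62 to 8.49 ± 1.84 CPM after CFA. Gm26881 (chr4:43045966-43053254) had the same direction, with log2 fold changes of 1.05 (SE 0.27) and 0.38 (SE 0.23), from levels of 0.428 ± 0.152 CPM in WT naive and 0.915 ± 0.271 CPM in naive libraries labelled RGS4KO.

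Galt and Unc13b were well measured and differed little. Galt (chr4:41755228-41758695) averaged 19.1 ± 0.94 and 21.1 ± 0.913 CPM in naive WT and RGS4KO-labelled libraries, and 19.3 ± 1.19 and 21.3 ± 0.727 CPM after CFA, which gives 1.1-fold and 1.11-fold by label. Unc13b (chr4:43058953-43264871) had its larger difference by label after CFA, with 28.8 ± 1.37 CPM for WT and 33.5 ± 2.43 CPM for the RGS4KO label (log2 fold change 0.21, SE 0.05), beside 32.0 ± 1.18 and 33.4 ± 1.68 CPM in naive libraries (0.06, SE 0.05). The interaction test of edgeR did not call Unc13b (adjusted p = 0.518). This test is built from the contrasts by label that chose the interval, so its result is a description too. The gene 1110017D15Rik (chr4:41505009-41517333) was lower by label in both treatments, at 5.2 ± 0.273 and 4.11 ± 0.496 CPM in naive and 5.13 ± 0.668 and 4.15 ± 0.66 CPM in CFA libraries. All 6 markers of ependyma and choroid plexus, the ciliated lining of the ventricles, were measured, Ttr lowest at 0.953 CPM; they summed to 80.4 to 84.6 CPM in WT naive, 66.0 to 82.3 CPM in naive libraries labelled RGS4KO, 59.8 to 86.9 CPM in WT CFA and 65.7 to 78.7 CPM in CFA libraries labelled RGS4KO, and their part in the values of Kif24 and 1110017D15Rik was not tested.

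**Figure D1:**
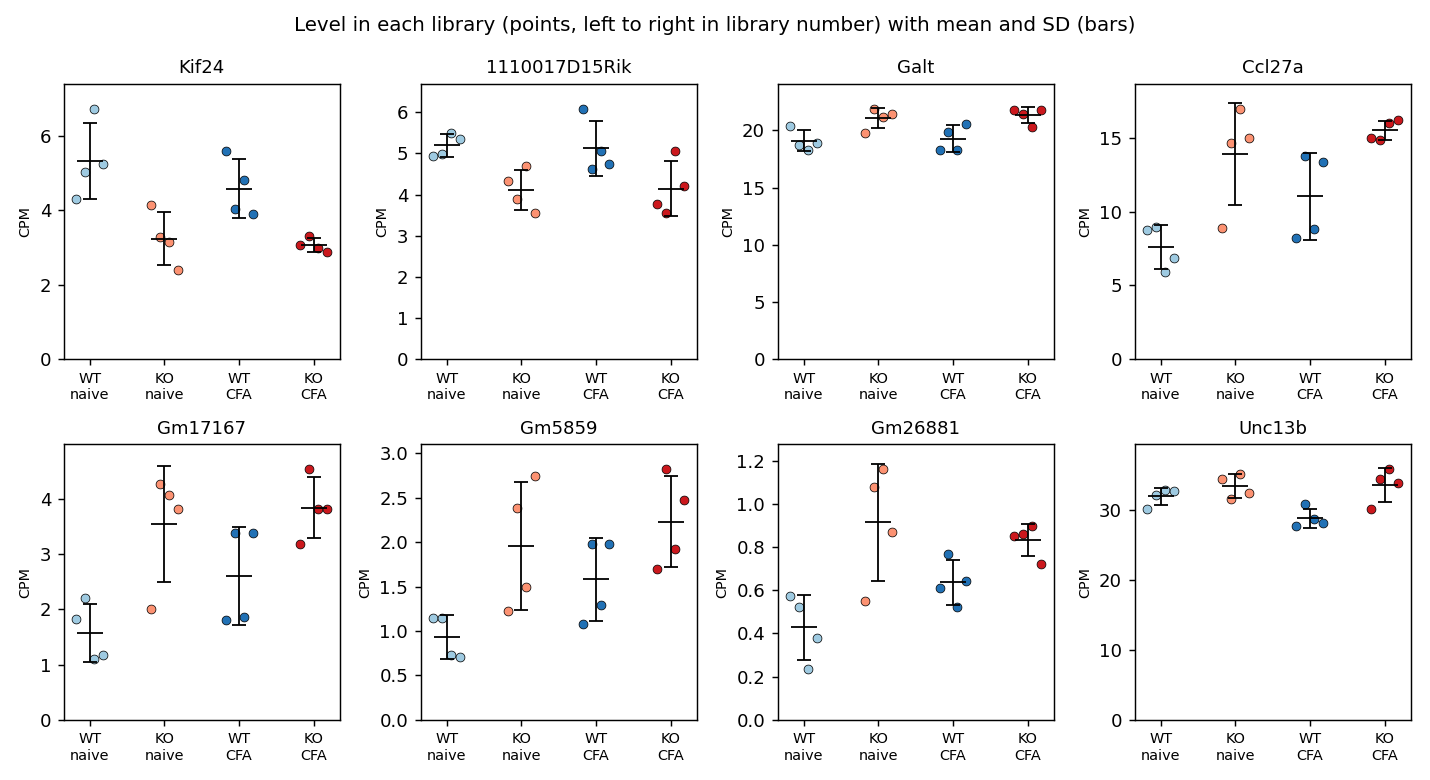
CPM (vertical axis, from 0) of 8 genes in each of the 16 libraries, grouped by label and treatment; points are libraries in number order, bars are mean and SD. For Ccl27a and Gm17167, naive library 5 (first orange point) lies with the WT naive libraries and WT CFA libraries 10 and 12 (the second and the fourth dark blue point) lie near the libraries labelled RGS4KO.

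Counts over the interval put these genes in scale. A gene was called where the adjusted p of edgeR's quasi-likelihood test, over all 18350 genes, was under 0.05. Averaged over both treatments, 11 of the 82 genes were called by label, beside 3.73% of all genes tested: 9 were higher (1.74% of all genes; among them Galt, Ccl27a, Gm17167, Gm13301, Gm5859, Gm12394, Gm26881 and Unc13b) and 2 were lower (1.99% of all genes; Kif24 and 1110017D15Rik). In naive libraries alone 1 gene was called (Kif24; 1.45% of all genes), and in CFA libraries alone 1 (Unc13b; 1.6% of all genes). Nothing is read from these counts, since the interval was chosen on these contrasts. The same labels gave non-overlapping libraries for 7 of the 82 genes in naive (7.23% of all genes) and for 6 in CFA (8.03% of all genes). The 7 were Kif24, 1110017D15Rik, Cntfr and Pigo, which were lower, and Bag1, Gm5859 and Gm10600, which were higher. Among the 6 were Kif24 and Gm13306, which were lower, and Ccl27a and Gm12394, which were higher. Without WT naive library 3, the average count was 3 in place of 11, while over all genes it went from 685 of 18350 to 505 of 18469. Without naive library 5 the naive count was 7 in place of 1. The share over all genes in that fit is not given here, so nothing is read from it. Of the 11 genes, 6 share at most 10% of their 50-base words with genes elsewhere.

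By position, the values by label are given as a description, since the interval was chosen on them. By megabase from 40 Mb, the interval held 14, 22, 10, 27 and 9 of the genes. The 11 genes called on average by label lay in the megabases from 41 Mb on, with 4, 4 and 2 of them in those that start at 41, 42 and 43 Mb. The median size of the average log2 fold change, without sign, was 0.04, 0.06, 0.42, 0.04 and 0.03 in the same order, against 0.05 for all genes tested. In the megabase from 42 Mb, 6 of the 10 genes share over 50% of their 50-base words with other genes, Gm5859 and Gm10600 mostly with Gm17167, so they are not separate measurements. The first genes of the interval, Aco1, Ddx58 and Topors, had average log2 fold changes of 0.01 (SE 0.02), -0.02 (SE 0.05) and -0.02 (SE 0.04). The last, Zcchc7, Grhpr and Zbtb5, had -0.04 (SE 0.03), 0.00 (SE 0.02) and 0.02 (SE 0.04). Just past the far border, Polr1e and Fbxo10 had 0.02 (SE 0.05) and 0.02 (SE 0.03). The 5 tested genes from 35 to 40 Mb had average log2 fold changes between -0.19 and 0.00. The 51 from 45 to 50 Mb ran from -0.28 to 0.66, and 2 of them were called; Ccl27a was at 0.67. Of the 71 genes of the interval that were not called, 54 had an average log2 fold change within 0.1 of 0.

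**Figure D2:**
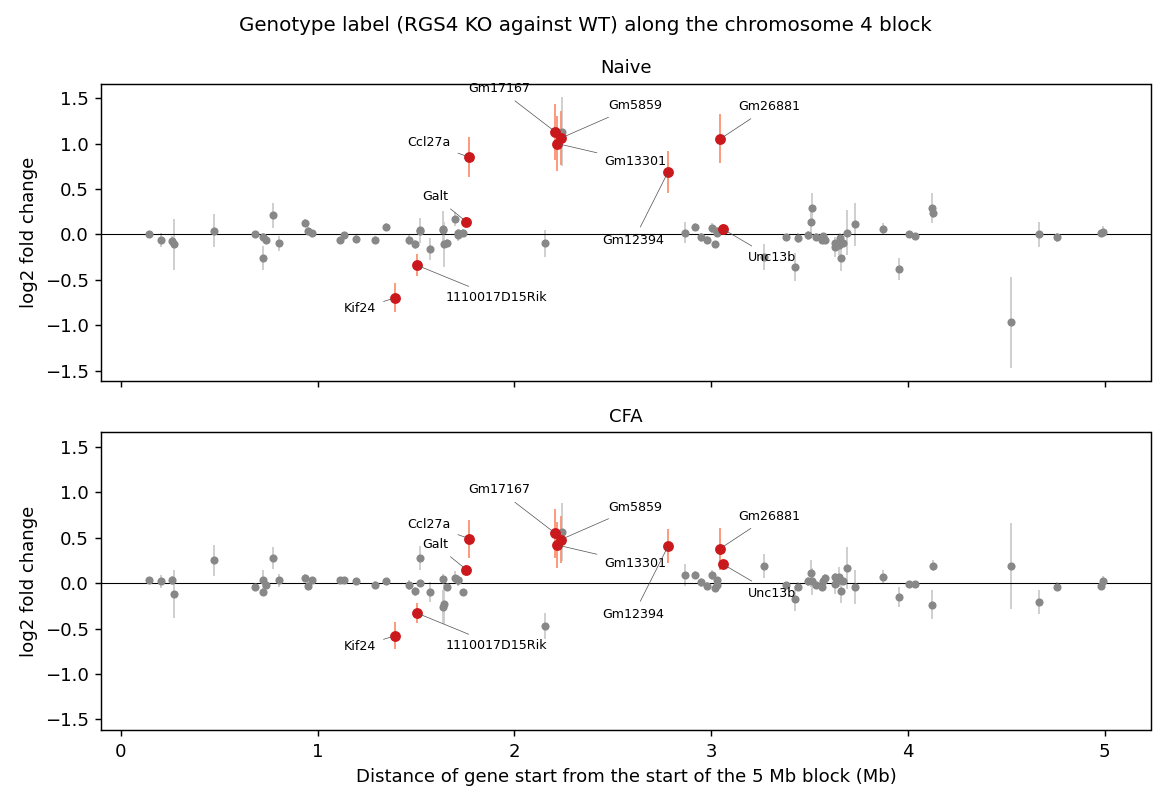
Log2 fold change of libraries labelled RGS4KO against WT (vertical axis) for the 82 genes by distance of the gene start from the start of the interval (horizontal axis, Mb), in naive (top) and CFA libraries (bottom); bars are SE and 10 of the 11 genes called on average are red and named. Most genes lie near 0, and the named genes lie mainly between 1.4 and 3.1 Mb, with points nearer to 0 in CFA than in naive libraries for Ccl27a and the predicted genes.

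Many of the genes with a difference by label also varied together within groups, to different degrees. Over the 16 libraries, Pearson's r of log2(CPM + 0.5) with Ccl27a was 0.98 for Gm17167, 0.92 for Gm26881 and 0.86 for Galt, and -0.92 for Kif24 and -0.89 for Gm20878. After taking out the group means it was 0.93 for Gm17167, 0.83 for Gm26881, 0.77 for Galt, -0.83 for Kif24 and -0.78 for Gm20878. It was lower for other called genes: 0.70 for Gm5859, 0.63 for Gm12394, 0.51 for Gm13301 and -0.35 for 1110017D15Rik after taking out the group means, and 0.03 for Unc13b (0.28 before). These values are descriptions over 16 libraries that all genes share; r of the 15 genes compared with log2 library total ran from -0.53 to 0.41. The libraries that moved the genes were the same ones named above. Library 5 was low among those labelled RGS4KO for Ccl27a, Gm17167, Gm5859, Gm12394 and Gm26881 and high for Kif24. Library 3 ranked lowest or next to lowest for the first set of genes and highest for Kif24. For Gm12394 it held 0.798 CPM, well above the 0.462 CPM of library 4. Of the 20 tested genes most like Ccl27a, a ranking chosen after these values were seen, 14 lie on chromosome 4, which holds 6.58% of tested genes. Of these 14, 7 are among the 82 genes studied here. Gm20878 and Gm17081, also among the 14, start in the interval but fell below the level minimum.

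**Figure D3:**
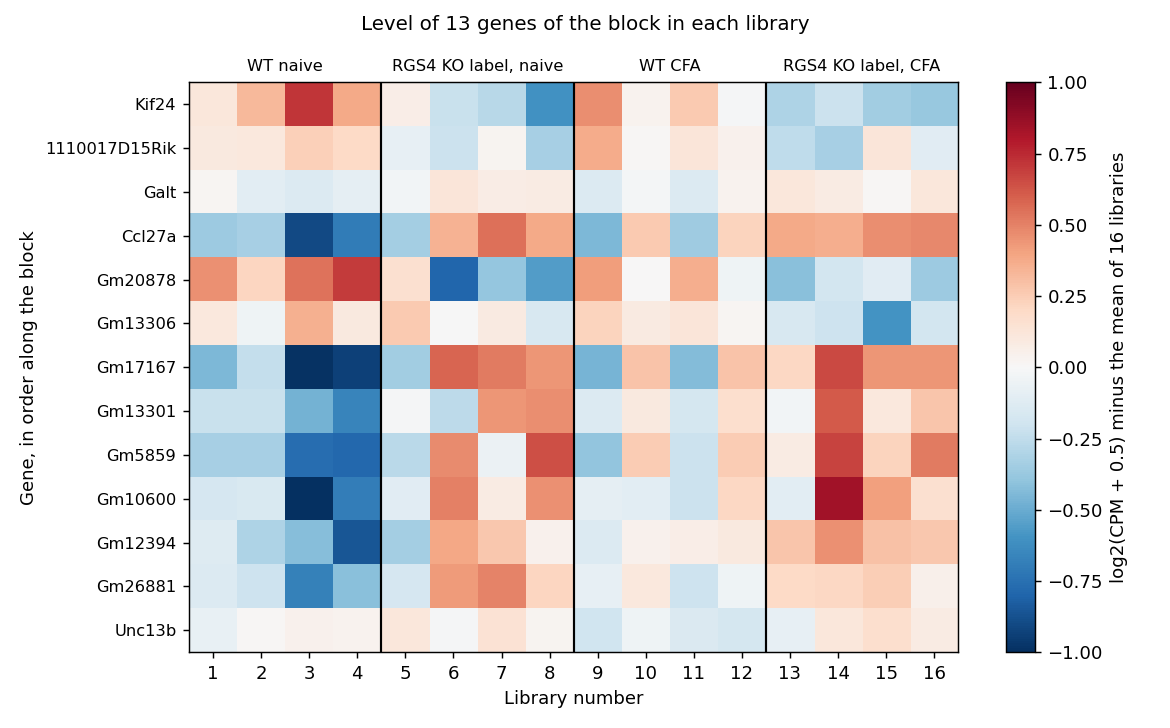
Level of 13 genes (rows, in order along chromosome 4) in the 16 libraries (columns, by number), as log2(CPM + 0.5) minus the gene's mean over libraries; red is above and blue below that mean. Kif24 and Gm20878 are the reverse of Ccl27a and Gm17167, with library 5 resembling the WT naive libraries and libraries 10 and 12 the libraries labelled RGS4KO.

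The contrast of CFA against naive was not used to choose the interval, so it was tested. It rests on the same libraries as the contrasts by label, so it is not fully independent of that choice. The interaction is the difference between the contrasts by label in CFA and in naive, on which the interval was chosen. Its counts are therefore given as a description. In WT, CFA against naive called 0 of the 82 genes (edgeR; 2.23% of all genes tested), with 16 at an unadjusted p under 0.05, which is 19.5% of them beside 17.6% of all genes. DESeq2 called 2 of the 73 genes to which it gave an adjusted p (5.15% of all genes with one), both lower after CFA: Nol6 and Npr2, the receptor for C-type natriuretic peptide. Npr2 went from 79.4 ± 2.91 to 71.9 ± 2.29 CPM in WT (n = 4 each; edgeR adjusted p = 0.0676), with all 4 CFA libraries below all 4 naive ones, and was 74.9 ± 5.05 and 75.2 ± 1.53 CPM in libraries labelled RGS4KO. Nol6 went from 159 ± 2.5 to 150 ± 2.78 CPM in WT (edgeR adjusted p = 0.0924), also without overlap, and was 152 ± 4.42 and 154 ± 1.66 CPM in libraries labelled RGS4KO. In the libraries labelled RGS4KO, CFA called 0 genes (edgeR; 0.185% of all genes), with 4 at an unadjusted p under 0.05 (7.81% of all genes) and 0 by DESeq2. The interaction of label and CFA also called 0 (edgeR; 0.0654% of all genes), with 6 at an unadjusted p under 0.05 (9.86% of all genes) and 0 by DESeq2. Libraries did not overlap between CFA and naive for 10 of the 82 genes in WT (11.3% of all genes) and for 2 in those labelled RGS4KO (4.29% of all genes).

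Aco1 was the 1 gene of the interval called for CFA averaged over both labels (1.81% of all genes tested). It encodes cytosolic aconitase, which turns into the iron regulatory protein IRP1 when iron is scarce. The naive libraries 1 to 8 measured 46.9, 46.8, 46.9, 46.9, 45.7, 46.0, 49.0 and 46.8 CPM. After CFA, libraries 9 to 16 measured 43.1, 42.3, 44.8, 43.4, 44.7, 46.4, 43.2 and 42.7 CPM. All 4 WT CFA libraries lay below all 4 WT naive libraries, and in the libraries labelled RGS4KO library 14 reached the naive range. Aco1 fell by 0.10 on the log2 scale (SE 0.02, edgeR adjusted p = 0.0449), and its call was lost in 13 of the 16 fits that each left out 1 library, with adjusted p between 0.0218 and 0.469 over all alternatives. Spaar, a short gene product that tempers growth signalling through mTORC1, had the largest average log2 difference, 0.57 (SE 0.15), from levels of 0.492 ± 0.1 to 0.773 ± 0.109 CPM in WT, and was not called (edgeR adjusted p = 0.0573).

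The members with the strongest label pattern gave no CFA call. Ccl27a was 7.63 ± 1.5 CPM in naive and 11 ± 2.93 CPM in CFA libraries of WT (log2 difference 0.54, SE 0.22, edgeR adjusted p = 0.213), and 13.9 ± 3.47 and 15.5 ± 0.658 CPM in those labelled RGS4KO (0.18, SE 0.21, adjusted p = 0.897). Kif24 differed by -0.23 (SE 0.15) in WT and -0.10 (SE 0.17) in the libraries labelled RGS4KO, with edgeR adjusted p of 0.444 and 0.941. Markers of a midbrain nucleus also differed between these groups: the 4 Edinger-Westphal markers, Cartpt, Ucn, Chat and Prph, summed to 29.3 to 67.5 CPM in WT naive, 40.4 to 262 CPM in naive libraries labelled RGS4KO, 259 to 358 CPM in WT CFA and 66.1 to 197 CPM in CFA libraries labelled RGS4KO. Their part in the CFA values was not tested, and in bulk punches fewer cells of a type and less RNA per cell cannot be told apart.

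**Figure D4:**
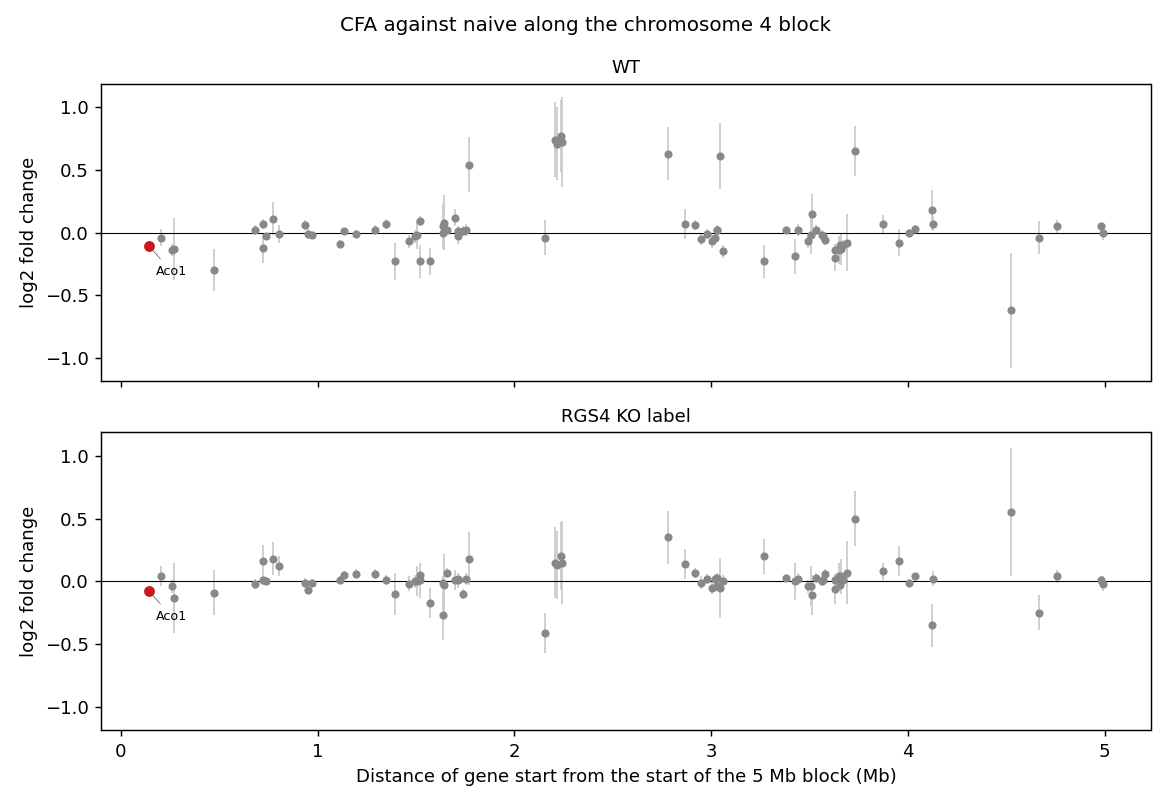
Log2 fold change of CFA against naive libraries (vertical axis) for the 82 genes by distance of the gene start from the start of the interval (horizontal axis, Mb), in WT (top) and in libraries labelled RGS4KO (bottom); bars are SE and red marks Aco1. Aco1 lies at -0.11 in WT and -0.08 in libraries labelled RGS4KO, and the points farthest from 0 are genes with wide bars.

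Summed over the 82 genes, the level of the interval was 3376 ± 35.5 CPM in WT naive, 3370 ± 47.7 CPM in naive libraries labelled RGS4KO, 3379 ± 34.6 CPM in WT CFA and 3407 ± 40.3 CPM in CFA libraries labelled RGS4KO. CFA minus naive was 3.83 CPM in WT (exact two-sided permutation p = 0.857) and 37.1 CPM in libraries labelled RGS4KO (exact permutation p = 0.286). Both differences were smaller than the SD between libraries.

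By role, most of the interval stayed near 0 by label, as counted for the average over both treatments. The share called over all genes tested was 3.73% there. Among the protein quality control genes, Bag1 went from 92.2 ± 4.2 to 101 ± 3.84 CPM in naive libraries without overlap and from 96.3 ± 2.62 to 100 ± 5.6 CPM in CFA libraries with overlap, and Dnaja1 and Ubap1, an ESCRT-I subunit, had average log2 fold changes of -0.07 (SE 0.03) and 0.05 (SE 0.03). Of 11 metabolic and glycosylation genes 1 was called (Galt), and Pigo, which adds ethanolamine phosphate to the lipid anchors of surface proteins, went from 33.5 ± 1.09 to 31.0 ± 0.845 CPM in naive libraries. Of 9 traffic and synapse genes 1 was called (Unc13b), and Phf24 went from 256 ± 6.75 to 270 ± 11.9 CPM in naive and from 267 ± 10.2 to 284 ± 15.9 CPM in CFA libraries. The 5 RNA processing genes, among them the splicing factor gene Smu1, had average log2 fold changes between -0.04 and 0.02.

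Of the 6 cytokine and immune genes 1 was called by label on average (Ccl27a), beside 3.73% of all genes tested. Cntfr was 88.5 ± 2.9 CPM in WT naive and 83.2 ± 1.76 CPM in naive libraries labelled RGS4KO without overlap, and 89.7 ± 2.75 and 87.1 ± 3.62 CPM after CFA with overlap. Il11ra1 was 13.2 ± 0.818 and 14.9 ± 1.62 CPM in naive and 14.3 ± 0.877 and 14.9 ± 0.932 CPM in CFA libraries; it shares 46.3% of its 50-base words with other genes, mainly its copy Gm13305. Among the 5 transcription regulators, Pax5, which sets B cell identity and helps to set the border of midbrain and hindbrain in development, varied most, from 1.44 CPM in WT CFA library 10 to 12.6 CPM in WT naive library 2. Its group means of 9.42 ± 2.26, 4.99 ± 2.56, 6.22 ± 3.52 and 7.06 ± 1.91 CPM (WT naive, RGS4KO naive, WT CFA, RGS4KO CFA) came with SDs of at least 1.91 CPM, and the average log2 fold change by label was -0.39 (SE 0.34).

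Partners of the interval's genes elsewhere in the genome mostly gave no call either. Of all genes tested, 1.99% were called lower by label on average, 1.42% higher after CFA in WT and 1.08% higher after CFA on average. Of 18 genes of the gp130 cytokine pathway, 2 of which are in the interval, 1 was lower by label on average (Lif, a ligand that signals through gp130; log2 fold change -0.48, edgeR adjusted p = 0.0395, mean 0.842 CPM) and 1 was higher after CFA in WT (Ptpn11, the phosphatase SHP2; 0.15, edgeR adjusted p = 0.0108). Of 18 VCP cofactors and genes of protein disposal from the endoplasmic reticulum, 1, Sel1l, was called in each of these contrasts (3.73% and 2.23% of all genes in either direction), with log2 differences of 0.08 and 0.12 (edgeR adjusted p = 0.0325 and 0.0237). Of 24 HSP70 proteins and co-chaperones, 2 were lower by label on average (Dnajb4, -0.16, and Bag2, -0.17), and 5 rose after CFA on average: Hspa5 by 0.33, Hsph1 by 0.15, Stip1 by 0.15, Hspa1a by 0.51 and Hspa1b by 1.24 on the log2 scale (edgeR adjusted p from 0.000213 to 0.0135). The HSP70 genes of the interval's own list, Dnaja1, Bag1 and Dnajb5, were not called for CFA (average log2 differences of 0.04, 0.03 and -0.03, edgeR adjusted p from 0.487 to 0.71).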

How the data were processed

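The files deposited by the authors are tables of raw counts of reads for each gene, 1 table per library. TopHat, DESeq2 and the build mm10 are named in the submitters' processing notes; no source used here gives the annotation release or the strand setting. Per the labels' protocols the TruSeq RNA kit, which does not mark strand, was used on TRIzol RNA, so reads of overlapping, antisense or near-identical genes cannot be assigned with certainty; 36 of the 82 genes overlap another gene in exons. Reads listed as not assigned to a gene (38% to 39.9% of listed reads per library) were left out. Symbols and positions came from GENCODE M21, which matched 37607 of 38924 gene IDs.

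Counts were fitted with edgeR 4.0.16 in R 4.3.3 (filterByExpr at a minimum count of 10, TMM scaling, robust quasi-likelihood test, 1 mean per group, all 16 libraries, 7 contrasts), and p-values were adjusted by the Benjamini-Hochberg method over 18350 genes; the script was tested on simulated data. CPM are on TMM-scaled totals, log values use a pseudocount of 0.5 CPM, and errors are SD over 4 libraries or SE of the fit. Library numbers pair no samples. Replicates differed by more than sampling noise (chi-square per degree of freedom from 3.55 to 13.7), so each counted as 1 sample; they were taken to be separate pools of mice. Single values were compared by exact permutation tests. DESeq2 1.42.0 was an alternative.

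The genes and lists were chosen with earlier results of these data known. Genes named are those called in any contrast, those whose libraries did not overlap by label in both treatments, the 10 highest per kilobase, those next to the level minimum and the interval's edges, and up to 4 per role list with the lowest p. Gm20878, Gm10600, Gm13306, Spaar's values, the genes listed by non-overlap in 1 treatment, Npr2, and the genes most like Ccl27a and Kif24 were named after their values were seen. Some genes that meet these rules are not reported here.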

Additional observations from a re-analysis of the deposited data

Results flagged for a closer look

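In groups of 4 libraries, the most extreme library was set against the other 3 by Dixon's ratio, its gap to the nearest library over the range of the group. Of 108 groups checked 4 passed Dixon's critical value for 4 samples, where chance gives about 5%. Chmp5 was 106 CPM in naive library 8, labelled RGS4KO, and 91.3 to 92.2 CPM in libraries 5 to 7 (ratio 0.933). Gm12394 was 1.89 CPM in CFA library 14 and 1.6 to 1.63 CPM in the other CFA libraries labelled RGS4KO (ratio 0.895). Gm13306 was 0.978 CPM in CFA library 15 and 1.44 to 1.51 CPM in the others of its group (ratio 0.872). The summed level of the 82 genes was 3299 CPM in naive library 5 and 3386 to 3402 CPM in libraries 6 to 8 (ratio 0.85).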

How the results depend on the processing

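No paired analysis was possible because library numbers run through the series and none is shared between groups. Leaving out 1 library at a time, the number of genes called ranged from 0 to 7 for the label in naive, 0 to 2 in CFA, 3 to 11 on average, 0 to 1 for CFA in WT and 0 to 2 for CFA on average; it was 0 in each such fit for CFA in libraries labelled RGS4KO and for the interaction. The naive count was 0 without library 3, 4, 6 or 8. Counts over all genes moved too. Without library 3 they were 148 by label in naive and 505 on average (of 18469). In the main fit they were 266 and 685 (of 18350). DESeq2 called 6 genes by label in naive (456 of 19476 over all genes), 2 in CFA (449 of 21216) and 2 for CFA in WT (764 of 14836). With no filter on low counts 2 were called in naive (281 of 29917 over all genes) and 0 for average CFA (319 of 29917). With only the 2 groups compared in the fit, counts were 0 in naive, 2 in CFA and 1 for CFA in WT. Over all genes these fits called 198 of 17613, 300 of 17942 and 604 of 17938. With all libraries thinned to the shallowest total, counts were 0 in CFA, 5 on average by label and 0 for average CFA. Over all genes, thinning left 186, 449 and 226 called of 16661. Counting only protein-coding genes gave 7 of 69 on average, and genes whose exons overlap no other gene gave 6 of 46. Genes that share at most 10% of their 50-base words gave 6 of 70, a count chosen after seeing the data. Over all genes it was 685 of 18350. Kif24 was called on average by label in all 20 alternatives run for single genes, while each of the other 9 named genes called on average lost its call in at least 2 of them. The interval was chosen on this contrast, so these refits describe the calls and lend them no support. The number of genes ranged from 75 (at least 1 CPM) to 102 (at least 0.1 CPM). The summed CFA difference ranged from -13 to 20.6 CPM in WT, turning negative without WT CFA library 12 (-13), WT naive library 3 (-5.77) or 4 (-3.02), and from 13.4 to 55.4 CPM in libraries labelled RGS4KO. The Rgs4 difference ranged from -0.764 to 1.85 CPM in naive, turning negative without library 8 (-0.656), 1 (-0.415) or 3 (-0.764), and from -8 to -2.78 CPM in CFA. The cause of these shifts was not tested. Genes under 1 CPM rest on few reads in the shallowest library, which limits them most.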

Other observations

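The pattern over libraries of Ccl27a was also seen outside the interval. Among the 20 tested genes most like it, Nfib, a transcription factor of glial and neuronal development (r = -0.87), Invs, which acts in primary cilia (-0.87), 4930412C18Rik (0.86) and Rad23b, a shuttle for ubiquitin-tagged proteins and DNA repair factor (0.85), lie elsewhere on chromosome 4. Ppp2r5c, a phosphatase subunit (0.84), lies on chromosome 12. For Kif24, 5 of the 20 most alike genes lie on chromosome 4, and 4 of them are among the 82 genes studied here. The remaining gene of the 5, Gm20878, starts in the interval but fell below the level minimum. Ppp2r5c (-0.92) and Pqlc3 (0.90) of chromosome 12 are also among the 20. These values are over the same 16 libraries with the group means left in, so differences by label enter them. They were chosen after they were seen, and no explanation was tested.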
